A study of Mus musculus with 20 samples.

Results

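Insm1, Insm2, Nhlh1, Nhlh2, Myt1, Myt1l, St18 and Rest are 8 regulators of neuronal differentiation, chosen by name from the 21887 protein-coding genes of the mouse RefSeq table. For each gene, the peaks of every deposited list that overlapped the gene body plus 50 kb on each side were collected (build mm10), and this stretch is called the window of the gene. The peaks come from CUT&Tag, in which an antibody tethers a transposase to a chromatin protein or histone modification so that the neighbouring DNA is cut out and sequenced. The tissue was dissected at E11.5, an embryonic day, from mice of strain C57BL/6J and is labelled CVG, the usual abbreviation of the cochleovestibular ganglion, which holds the newly formed sensory neurons of the inner ear. No library differed in genotype or treatment, and the groups are named after the target of the antibody. The targets were ISL1 (1 library named ISL1_26 and 3 named ISL1_70), POU4F1 (2 libraries), H3K4me3 (2), H3K27me3 (3) and H3K27ac (3). The labels do not say how the ISL1 groups differ, and their libraries were treated as 1 target. Of the 20 samples, 6 IgG libraries were not analysed here, so no background measured with IgG stands beside the values. The labels do not say whether replicates are separate embryos or dissections, so the spread between them may be technical.

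ISL1 is a LIM homeodomain factor and POU4F1 a POU homeodomain factor, and both are known for directing the differentiation of sensory neurons. H3K4me3 marks promoters, H3K27ac marks active promoters and enhancers, and H3K27me3 marks chromatin silenced by Polycomb. INSM1 and INSM2 are SNAG domain zinc finger repressors, NHLH1 and NHLH2 are basic helix-loop-helix factors switched on in newborn neurons, MYT1, MYT1L and ST18 form a family of zinc finger factors, and REST is the repressor that keeps neuronal genes silent outside neurons.

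The lists differed widely in length, from 24573 to 95719 peaks for ISL1, 29096 and 34249 for POU4F1, and 8855 to 168144 for H3K27ac. The lists hold no read totals, so the depth behind them is unknown. When overlapping POU4F1 peaks were joined over the genome, 545 of 62799 regions (0.868%) held peaks of both POU4F1 libraries. The library labelled H3K4me3 replicate 1 had peaks at the starts of 20 of 20 Hox genes and 0 of 20 housekeeping genes, whereas H3K4me3 replicate 2 had them at 5 and 18. Its values are therefore given under its label and not as promoter signal, and H3K4me3 is read from replicate 2. In H3K27me3 replicate 1 the median −log10 q of the peaks was 1.09, close to the lower limit of the list. Tied peaks were given the best rank of their tie, and many peaks of this library were tied. Its ranks therefore make its peaks look stronger than they are. In the windows of Rest, Myt1 and Myt1l, this library also had peaks that H3K27me3 replicates 2 and 3 lacked. At those positions H3K4me3 replicate 2 and H3K27ac had peaks. Counts of 3 of 3 H3K27me3 libraries, or of all 8 histone libraries, include this library. H3K27ac lay at the starts of 10 of 12 neuron markers, 6 of 8 otic epithelium markers, 3 of 8 glia and neural crest markers, 1 of 8 mesenchyme markers, 2 of 8 endothelium and blood markers and 2 of 6 muscle markers (at least 2 libraries each). H3K27me3 lay at the starts of 9, 6, 6, 7, 2 and 2 of the same lists. Over all protein-coding genes the shares were 48.4% for H3K27ac and 19.8% for H3K27me3. Because the tissue is a mixture, marks that overlap at a position may sit in the same cells or in different cells, and the lists cannot tell these apart.

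Of the 8 genes, 5 had promoters in the RefSeq table (11 in all), and the 250 bases before the start are shown for the 5 promoters that the results return to. These are the Nhlh2 start, where all 4 ISL1 libraries had a peak, the Nhlh1 start, which held a POU4F1 peak near the top of its list, the first Myt1 start, where ISL1 and POU4F1 peaks overlapped, and the Insm2 start and last Myt1l start, which lay in H3K27me3. Each is written 5′ to 3′ on the strand of the gene (RefSeq, GRCm38.p6), with the letters TAAT, or ATTA where the other strand reads TAAT, in capitals; this is the core that many homeodomain proteins recognise.
Nhlh2, chr3:102009895-102010144, plus strand: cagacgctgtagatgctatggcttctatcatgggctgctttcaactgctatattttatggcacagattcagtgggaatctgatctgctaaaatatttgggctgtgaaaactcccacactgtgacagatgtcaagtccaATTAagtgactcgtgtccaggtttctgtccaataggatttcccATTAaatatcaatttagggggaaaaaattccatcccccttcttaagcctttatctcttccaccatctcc
Nhlh1, chr1:172057597-172057846, minus strand: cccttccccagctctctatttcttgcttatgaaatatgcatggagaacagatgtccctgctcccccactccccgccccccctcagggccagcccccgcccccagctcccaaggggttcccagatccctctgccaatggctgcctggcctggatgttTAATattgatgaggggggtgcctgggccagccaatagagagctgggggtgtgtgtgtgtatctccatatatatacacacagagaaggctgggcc
Myt1, chr2:181763082-181763331, plus strand: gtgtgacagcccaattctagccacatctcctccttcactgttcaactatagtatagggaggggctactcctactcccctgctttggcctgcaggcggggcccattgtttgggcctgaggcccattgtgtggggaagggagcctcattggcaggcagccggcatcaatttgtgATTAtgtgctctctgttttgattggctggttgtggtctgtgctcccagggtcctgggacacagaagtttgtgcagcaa
Insm2, chr12:55598667-55598916, plus strand: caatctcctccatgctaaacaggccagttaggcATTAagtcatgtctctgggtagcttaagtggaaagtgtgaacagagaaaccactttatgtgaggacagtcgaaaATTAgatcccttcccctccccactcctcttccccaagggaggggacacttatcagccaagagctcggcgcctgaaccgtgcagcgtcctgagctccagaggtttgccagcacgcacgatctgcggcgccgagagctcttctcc
Myt1l, chr12:29534972-29535221, plus strand: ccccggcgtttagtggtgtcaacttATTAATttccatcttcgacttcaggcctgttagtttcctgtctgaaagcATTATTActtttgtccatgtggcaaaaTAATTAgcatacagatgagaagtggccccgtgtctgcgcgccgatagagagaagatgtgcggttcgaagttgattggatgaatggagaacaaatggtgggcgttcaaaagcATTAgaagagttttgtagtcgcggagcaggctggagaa

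Over the 300 bases from 250 before to 50 after the start, counted on both strands and with overlaps allowed, Nhlh2 had 2 TAAT matches, Nhlh1 had 1, the first Myt1 start had 1, Insm2 had 2 and the last Myt1l start had 7. At least 1 match was present in 58% of the 32851 promoters of the table, at least 2 in 34.1% and at least 7 in 2.37%. The last Myt1l promoter also contained TAATTA, found in 5.29% of promoters (its matches are TAAT matches as well), and the first Myt1l promoter contained the POU octamer ATGCAAAT, found in 1.74%. The Nhlh2 promoter held 4 matches to CANNTG, the general E-box of basic helix-loop-helix proteins, and 1 of them was CAGCTG; at least 4 CANNTG matches occurred in 6.49% of promoters, at least 1 in 72.3%, and CAGCTG in 16.3%. A match describes letters only and does not show that a protein sits there.

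Peaks of ISL1 were most dense around Nhlh2, Nhlh1 and Insm1, and least dense around St18. Overlapping peaks of the 4 ISL1 libraries were joined, and those joined from 2 or more libraries are called replicated regions. Such a region may join libraries of both ISL1 groups, whose difference is not stated. The 8 windows, 1672 kb in total, held 36 replicated ISL1 regions: 8 at Nhlh2, 8 at Myt1l, 7 at Insm1, 5 at Nhlh1, 3 at Myt1, 3 at St18, 1 at Insm2 and 1 at Rest. All 8 genes thus had at least 1, which was true of 62.1% of all protein-coding genes. Because the windows run from 103 kb at Insm1 and Insm2 to 496 kb at Myt1l, the number per 100 kb is the fairer measure. It was 7.59 at Nhlh2, 6.79 at Insm1, 4.75 at Nhlh1, 1.82 at Myt1, 1.61 at Myt1l, 0.97 at Insm2, 0.827 at Rest and 0.633 at St18, against 1.03 over all protein-coding windows. Among all genes these densities stood at percentiles 99.8, 99.6, 98, 79.4, 74.3, 63.6, 51 and 43.1. The median of the 8 genes was 1.72 regions per 100 kb, and that of all genes was 0.809. Some housekeeping genes had densities as high: Hsp90ab1, a chaperone, had 7.58 per 100 kb and Actb, cytoplasmic actin, 5.72.

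The number of regions rested on the longest lists. Of the 36 regions, 31 had a peak in ISL1_26 replicate 1, 28 in ISL1_70 replicate 1, 9 in ISL1_70 replicate 2 and 17 in ISL1_70 replicate 3. Without ISL1_26 replicate 1, 14 regions at 4 of the 8 genes were left (Insm1 2, Nhlh1 3, Nhlh2 6 and Myt1l 3). Without ISL1_70 replicate 1, 17 regions at 7 genes were left (Insm1 2, Insm2 1, Nhlh1 1, Nhlh2 5, Myt1 2, Myt1l 5 and St18 1). Without ISL1_70 replicate 2, Myt1 had 1 region and Myt1l 5, and without ISL1_70 replicate 3, Nhlh2 had 5. Nhlh2 had the largest or joint largest count without ISL1_26 replicate 1 and without ISL1_70 replicate 1 or 2. Without ISL1_70 replicate 3 it did not, since Myt1l then had 7 regions and Insm1 had 6.

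**Figure D1:**
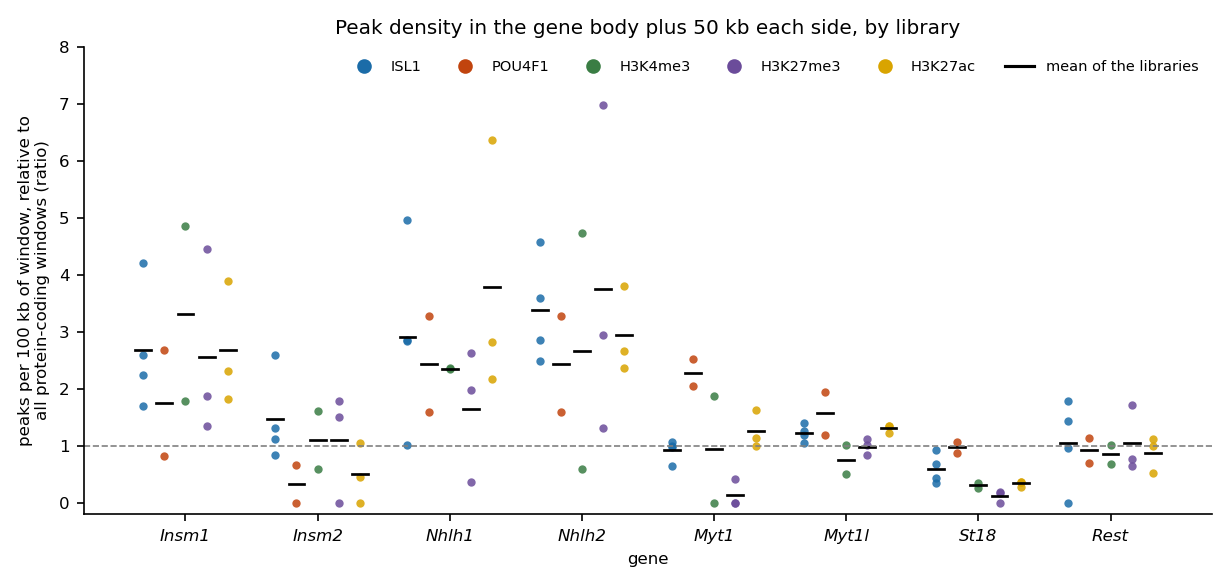
Peaks per 100 kb of window in each library, divided by the same value over all protein-coding windows of that library (vertical axis, ratio; dashed line at 1), for the 8 genes (horizontal axis); points are libraries, coloured by target, and black lines are the means over a target's libraries. All 4 ISL1 libraries lie between 2.48 and 4.58 at Nhlh2, while all 4 lie below 1 at St18.

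**Figure D2:**
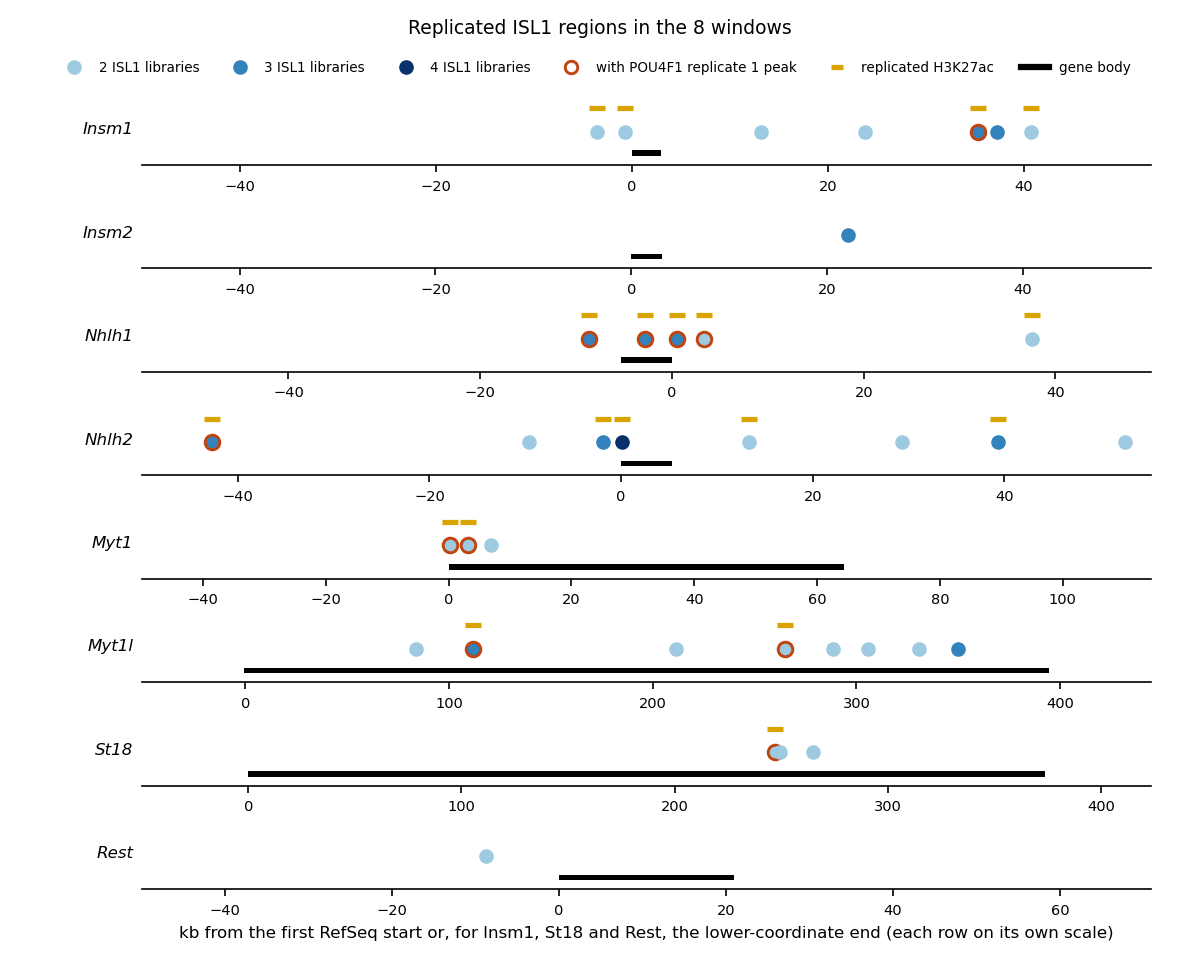
Replicated ISL1 regions (circles, darker for 3 and 4 libraries) along each window, in kb from the first RefSeq start or the lower-coordinate end, with black bars for the gene bodies, orange rims for regions with a POU4F1 replicate 1 peak and yellow dashes for regions that overlap replicated H3K27ac. The regions of Nhlh1 and Nhlh2 surround the start, the 8 of Myt1l and 3 of St18 lie within the gene, and the 1 of Insm2 and 1 of Rest lie away from it.

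Nhlh2 (chr3:102010111-102015492) lies alone in its window, with no other protein-coding gene. The ISL1 lists held 13 peaks there in ISL1_26 replicate 1 and 14, 3 and 9 in ISL1_70 replicates 1 to 3, a density of 3.38 ± 0.928 times that of all windows (SD, n = 4). Every ISL1 library exceeded the density of all windows, and the least dense reached 2.48 times. The region at the start, chr3:102009751-102010825, was the only 1 of the 36 with peaks in all 4 ISL1 libraries. A region of that kind at the start was present in 0.804% of all genes, and within the window in 8.07%. The peaks ranked in the best 21.5% of ISL1_26 replicate 1 and in the best 1.14%, 9.34% and 47.0% of ISL1_70 replicates 1 to 3, by the −log10 q of the authors' caller. Their summits lay 186 and 25 bases before the start in ISL1_26 replicate 1 and ISL1_70 replicate 3, and 127 and 133 bases after it in ISL1_70 replicates 1 and 2. In the sequence printed above, the 2 TAAT matches begin 112 and 69 bases before the start. No POU4F1 peak lay within 1 kb of this start in either library.

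The other Nhlh2 regions lay outside genes, on both sides. Chosen after their values were seen, 3 more had peaks in 3 ISL1 libraries: chr3:101966825-101968078, chr3:102007632-102008840 and chr3:102048528-102050355. The last held ISL1_26 and ISL1_70 replicate 1 peaks in the best 2.35% and 0.871% of their lists, but the ISL1_70 replicate 3 peak ranked at 91.5%. When each list was cut to its 10000 best peaks, 5 of the 8 Nhlh2 regions were still counted, whereas Myt1 and St18 had 1 each and the other 5 genes had 0. POU4F1 had 5 and 2 peaks in the window. None of these overlapped between its libraries.

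At the Nhlh2 start, H3K4me3 replicate 2 had a peak ranked 481 in its list (2.14%), and covered 3.33% of the window. H3K27ac was present at the start in 3 of 3 libraries, at ranks of 55.1%, 14.1% and 50%, and H3K27me3 in 1 of 3 (replicate 2, 38.6%). H3K27me3 was stronger inside the gene, where the region chr3:102011239-102013462 had peaks in 3 of 3 libraries. Of 4.36 kb of replicated H3K27me3 in the window, 2.98 kb (68.5%) overlapped replicated H3K27ac, compared with 8.39% of all replicated H3K27me3. The latter is a share of 33878 kb over the whole genome, with long domains and regions away from genes included, so it is not a like comparison.

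Nhlh1 (chr1:172052292-172057596, minus strand), the paralogue of Nhlh2, shares its window with Vangl2, Ncstn and Copa. ISL1 peaks numbered 13 in ISL1_26 replicate 1 and 11, 6 and 2 in ISL1_70 replicates 1 to 3, which was 2.92 ± 1.61 times the density of all windows (SD, n = 4; range 1.02 to 4.96). The libraries were thus less uniform than at Nhlh2, with ISL1_70 replicate 3 at the level of an ordinary window. By the naming rule its leading region is chr1:172048328-172049637, beyond the 3′ end and 7.96 kb from the start. That region had peaks in 3 ISL1 libraries (13.6% in ISL1_26 replicate 1, 10.3% and 89.2% in ISL1_70 replicates 1 and 3) and was the only 1 of the 36 with peaks of both POU4F1 libraries. The POU4F1 peaks ranked low, at 61.9% and 88.6%, and did not overlap each other.

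The Nhlh1 start, described after its values were seen, held the best-ranked POU4F1 peak of the 8 windows in either library. The peak of POU4F1 replicate 1 spanned chr1:172057341-172058736, had a caller fold enrichment of 269 and ranked 13 among the 34249 peaks of the list (0.038%). Its summit lay 97 bases before the start, and the single TAAT of the printed promoter begins 94 bases before the start. POU4F1 replicate 2 had no peak within 1 kb, and its best peak in the whole window ranked at 69.9%. ISL1 peaks overlapped there in 3 of 4 libraries (region chr1:172057577-172058762), ranked at 54.7% in ISL1_26 replicate 1 and at 3.28% and 96.6% in ISL1_70 replicates 1 and 2. Their summits were 751, 985 and 398 bases before the start. The POU4F1 peak was therefore seen in 1 of 2 libraries, and the ISL1 signal there was strong in 1 of 4.

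H3K27ac covered 4.90%, 30.6% and 28.3% of the Nhlh1 window in replicates 1 to 3, at percentiles 99.1 to 99.5 of all genes. Most of the 11 replicated H3K27ac regions of this window lay in Vangl2, Ncstn or Copa. They included regions of 5.82 kb in Vangl2 and 4.26 kb in Ncstn, so the cover is not that of Nhlh1 alone. The region over the start, chr1:172055428-172062670, was 7.24 kb long and had peaks in 3 of 3 libraries; its width was at percentile 99.6 of all replicated H3K27ac regions. The peaks ranked at 8.47%, 0.229% and 0.186%. H3K4me3 replicate 2 had a peak at rank 371 (1.65%) over the start. H3K27me3 was at the start in 0 of 3 libraries, although 2 replicated regions lay inside the gene (chr1:172052910-172055017 and chr1:172056117-172056372), and 86.1% of their 2.36 kb also carried replicated H3K27ac.

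**Figure D3:**
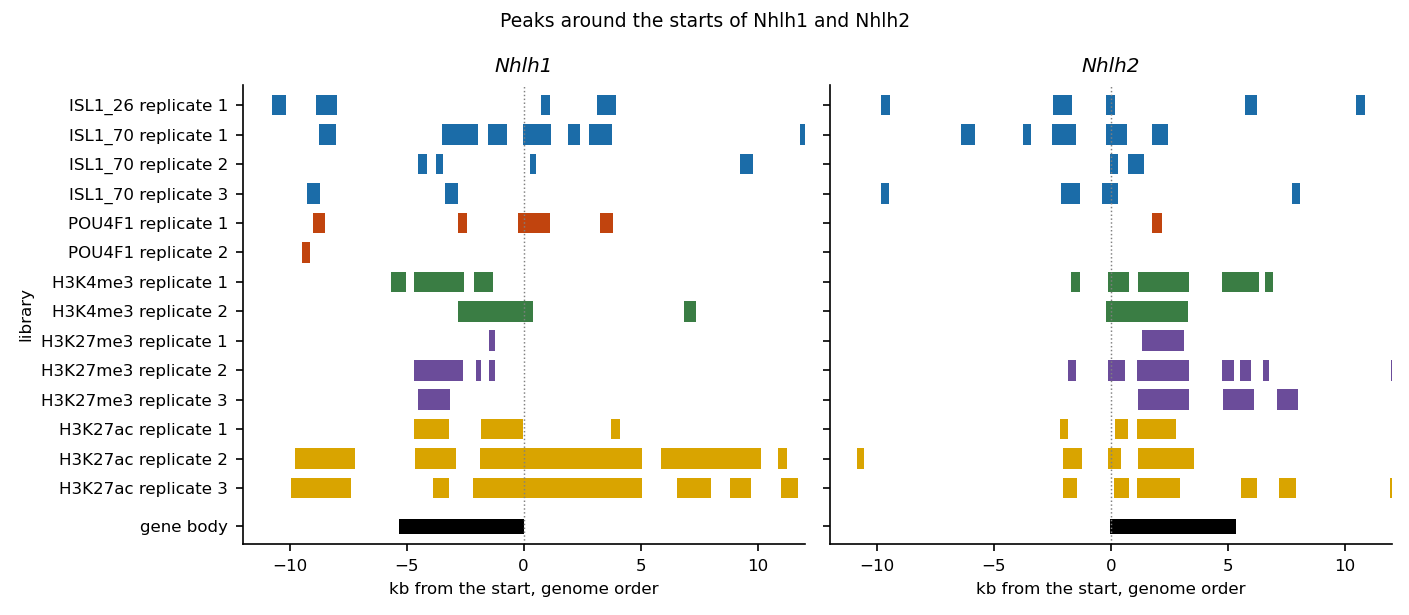
Peaks of the 14 libraries within 12 kb of the Nhlh1 and Nhlh2 starts (horizontal axis, kb in genome order; each row is a library and each bar a peak), with the gene bodies in black. At Nhlh1, whose gene body runs to the left, H3K27ac spreads over the start, where POU4F1 replicate 1 has a peak, and H3K27me3 peaks lie inside the gene more than 1 kb from the start, while at Nhlh2 all 4 ISL1 libraries have a peak on the start and H3K27me3 lies inside the gene.

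Insm1 (chr2:146221997-146225020), a gene without introns, resembled Nhlh2 in the number of ISL1 regions but not in where they lay. The window, shared with Cfap61 and Ralgapa2, held 10 ISL1 peaks in ISL1_26 replicate 1 and 16, 2 and 5 in ISL1_70 replicates 1 to 3. This was 2.69 ± 1.08 times the density of all windows (SD, n = 4; range 1.69 to 4.21), so each library exceeded the ordinary window. The leading region was chr2:146256479-146258199, in the neighbouring gene Ralgapa2 and 31.5 kb from Insm1, with peaks in 3 libraries at 3.96%, 14% and 98.9%. A POU4F1 replicate 1 peak overlapped it, ranked at 53.8%. Close to Insm1 itself, ISL1 peaks lay within 1 kb of an annotated end in 3 of 4 libraries, at 93.7% in ISL1_26 replicate 1 and at 39.2% and 18.9% in ISL1_70 replicates 1 and 2. Of the 7 regions, 4 lay in another gene and 3 outside genes, and 4 overlapped replicated H3K27ac.

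Insm1 was covered at its ends by every histone library. It has no entry among the promoters, so a peak within 1 kb of either annotated end was counted, and all 8 histone libraries had 1. That was true of 1.06% of all genes, and of the 8 genes here it held for Insm1 and Rest. The 8 libraries include the library labelled H3K4me3 replicate 1, which is not read as promoter signal. The H3K27ac peaks ranked at 12.7%, 1.26% and 0.341%, and merged into a region of 7.07 kb, chr2:146217156-146224228, at percentile 99.6 of width. The H3K27me3 peaks ranked at 24.1%, 16.4% and 12.4%, although that of replicate 1 lay beyond the higher-coordinate end only. The replicate 1 peak was also weak, with a tied rank and a fold of 1.99. H3K4me3 replicate 2 had a peak ranked 864 (3.85%). Of 8.64 kb of replicated H3K27me3 in the window, 81.1% overlapped replicated H3K27ac.

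Insm2 (chr12:55598917-55602018), the paralogue of Insm1, had fewer ISL1 and H3K27ac regions than Insm1. In 4 of the 14 libraries the share of the window covered was nonetheless similar: the percentiles of Insm1 and Insm2 were 93.7 and 92.9 in ISL1_70 replicate 3, 91.4 and 84.9 in H3K27me3 replicate 2, 74 and 79.8 in H3K27me3 replicate 3, and 82.7 and 76.9 in the library labelled H3K4me3 replicate 1. The ISL1 lists held 5 peaks in ISL1_26 replicate 1 and 5, 1 and 5 in ISL1_70 replicates 1 to 3, and 1 region was replicated: chr12:55620479-55621527, in Ralgapa1, 21.6 kb away, with peaks in 3 libraries at 82.3%, 19.8% and 21.7%. At the start itself, 1 of 4 ISL1 libraries had a peak (ISL1_70 replicate 1, 19.8%, summit 14 bases before the start). POU4F1 had 1 peak in replicate 1 and 0 in replicate 2 in the whole window. Insm2 was the only 1 of the 8 genes without peaks of both POU4F1 libraries in its window. Peaks of both were present in the windows of 61.6% of all genes.

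The prominent mark at Insm2 was H3K27me3. Peaks of replicates 2 and 3 covered the start and most of the gene (region chr12:55596993-55601642) and ranked 671 and 1279 in their lists (4.75% and 3.25%), while replicate 1 had 0 peaks in the window. The library labelled H3K4me3 replicate 1 had a peak there at 3.74%, and H3K4me3 replicate 2 a weak peak at 83.4%. H3K27ac was absent in replicate 1 and present at 48.5% and 12.2% in replicates 2 and 3, and its density over the window was 0.502 ± 0.528 times that of all windows (SD, n = 3), with 0, 3 and 10 peaks. Of 6.7 kb of replicated H3K27me3, 22.4% overlapped replicated H3K27ac. Over the 14 libraries, the percentiles of window cover differed between Insm1 and Insm2 by 31.1 on average, compared with 10.3 between Nhlh1 and Nhlh2.

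**Figure D4:**
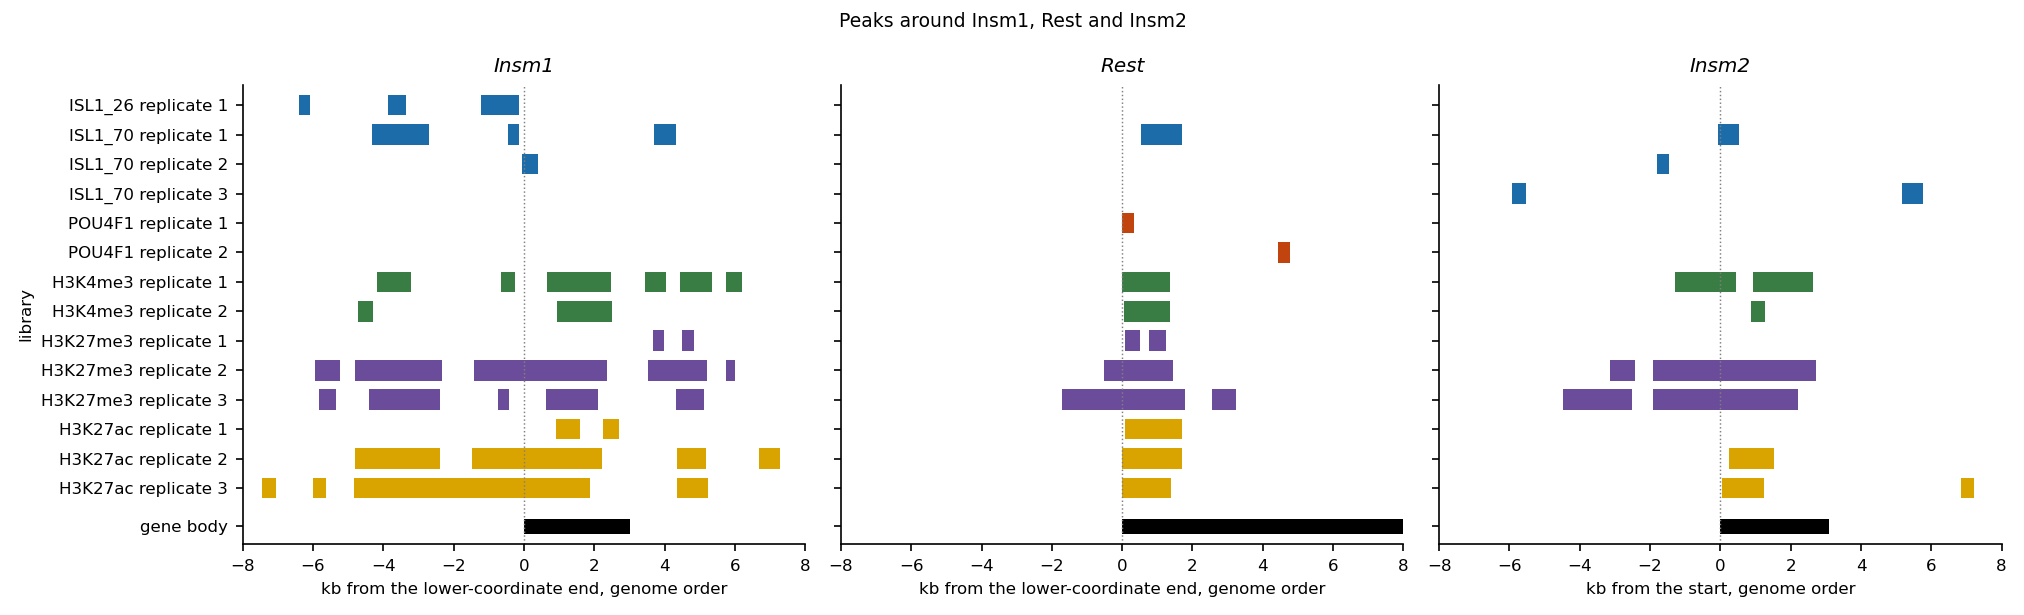
Peaks of the 14 libraries within 8 kb of Insm1, Rest and Insm2 (horizontal axis, kb in genome order from the lower-coordinate end or, for Insm2, the start; each row is a library and each bar a peak), with the gene bodies in black. H3K27ac and H3K27me3 overlap at all 3 genes, with wide H3K27ac at Insm1, compact peaks of all histone libraries at Rest, and H3K27me3 wider than H3K27ac at Insm2.

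Myt1 (chr2:181763332-181827775), which encodes the founding member of its zinc finger family, combined factor peaks with H3K27ac and lacked replicated H3K27me3. ISL1 peaks numbered 7 in ISL1_26 replicate 1 and 6, 2 and 2 in ISL1_70 replicates 1 to 3, a density of 0.921 ± 0.182 times that of all windows (SD, n = 4), hence no denser than usual. The 3 replicated regions lay near the first start, while other peaks were spread over the window. The leading region, chr2:181762682-181764443, had peaks in ISL1_26 replicate 1 and ISL1_70 replicate 2 in the best 3.54% and 5.10% of their lists. A POU4F1 replicate 1 peak at 4.1% overlapped it, with its summit 630 bases after the start. The ISL1 summits of these libraries lay 625 and 813 bases after the start. Without ISL1_26 replicate 1, 0 of the 3 regions were left, and without ISL1_70 replicate 2, 1 was.

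POU4F1 had 6 and 4 peaks in the Myt1 window, or 2.28 ± 0.33 times the density of all windows (SD, n = 2), and by the share of the window covered Myt1 stood at percentiles 91.4 and 97.4 of all genes. It was also the only 1 of the 8 genes with a peak at a start in both POU4F1 libraries, but at different starts of its 3: replicate 2 had its peak at the third, 360 bases after it (17.7%). H3K27ac at a start ranked at 50.9%, 1.53% and 0.849%, and H3K4me3 replicate 2 at 46.4%. H3K27me3 had 1 peak in the window in replicate 1 and 0 in replicates 2 and 3. No other of the 8 genes was without replicated H3K27me3, which 50.4% of all genes had in their window.

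Myt1l (chr12:29527590-29923216), a neuronal family member used to turn fibroblasts into neurons, carries 5 starts in the table and contains all 8 of its ISL1 regions within the gene. ISL1 peaks numbered 27 in ISL1_26 replicate 1 and 19, 8 and 11 in ISL1_70 replicates 1 to 3, which over 496 kb is 1.22 ± 0.152 times the density of all windows (SD, n = 4). The leading region, chr12:29878167-29878856, lay 343 kb from the nearest start, with peaks in 3 libraries at 59.6%, 42.8% and 41.0% and no POU4F1 or replicated H3K27ac. POU4F1 had 14 and 7 peaks in the window, the best at 2.16% and 7.73%. The POU4F1 replicate 1 peaks were strong at a pair of other regions, described after their values were seen. At chr12:29639769-29640475 the POU4F1 peak ranked at 2.33%, and at chr12:29792879-29793572 at 4.57%. Both overlapped replicated H3K27ac, and they were the only Myt1l regions of the 8 to do so.

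At the starts of Myt1l the strong mark was H3K27me3. The region chr12:29531801-29536046 covered 4 of the 5 starts, among them the last, printed above with its 7 TAAT matches. It had peaks in 3 of 3 libraries, at 5.31% (a tied rank, fold 2.98), 9.74% and 3.52%. The library labelled H3K4me3 replicate 1 had a peak there (6.42%), and H3K4me3 replicate 2 had none at any start. H3K27ac was at a start in 3 of 3 libraries (95.3%, 14.7% and 5.33%), but its best peak was at the first start in replicate 3 and at the last in replicate 1. ISL1 had start peaks in 2 of 4 libraries, at 76.7% in ISL1_26 replicate 1 and at 1.60% in ISL1_70 replicate 3, and peaks of these libraries did not overlap, so that 0 replicated ISL1 regions lay at a start.

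St18 (chr1:6487231-6860940), the remaining family member, had the lowest mean peak densities of ISL1 and H3K27ac among the 8 genes. Its POU4F1 density, 0.97 times that of all windows, was not the lowest. None of the 14 libraries had a peak within 1 kb of either end, and 25.1% of all genes had none of the 8 histone libraries there. St18 has no entry among the promoters, so any start inside the gene was not examined. ISL1 peaks numbered 9 in ISL1_26 replicate 1 and 6, 5 and 6 in ISL1_70 replicates 1 to 3, which over 474 kb is 0.595 ± 0.258 times the density of all windows (SD, n = 4), below 1 in each library. The H3K27ac density was 0.337 ± 0.0473 times that of all windows (SD, n = 3), with 1, 11 and 16 peaks. POU4F1 had 6 and 6 peaks, the best at 10.8% and 34.9%. St18 nevertheless held a strong intragenic position: chr1:6733765-6735002, 126 kb from the nearer end, had ISL1 peaks in the best 2.35% of ISL1_26 replicate 1 and 5.54% of ISL1_70 replicate 1. Peaks of H3K27ac replicates 2 and 3 (6.28% and 2.90%), of H3K4me3 replicate 2 (40.6%) and of POU4F1 replicate 1 (44.4%) overlapped it. Without ISL1_26 replicate 1, 0 of the 3 St18 regions were left, and without ISL1_70 replicate 1, 1 was.

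Rest (chr5:77265494-77286432) had few ISL1 peaks: 5 in ISL1_26 replicate 1 and 8, 2 and 0 in ISL1_70 replicates 1 to 3, or 0 to 1.79 times the density of all windows over the 4 libraries. Its only replicated ISL1 region, chr5:77256500-77257081, lay 8.41 kb from the gene, with middling ranks of 65.4% and 28.5%, and was lost without either ISL1_26 replicate 1 or ISL1_70 replicate 1. ISL1_70 replicate 1 had peaks at both ends of the gene, and ISL1_70 replicate 2 at the higher-coordinate end only. POU4F1 replicate 1 had a peak at the lower-coordinate end, ranked at 7.22%, and replicate 2 had none at either end, although its single peak in the window ranked at 2.21%.

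All 8 histone libraries met at the lower-coordinate end of Rest. H3K27ac peaks ranked at 16.5%, 8.39% and 4.97%, H3K27me3 peaks at 5.31%, 30.1% and 8.03%, and H3K4me3 replicate 2 at 13.4%. The 5.31% of H3K27me3 replicate 1 is a tied rank, with a fold of 2.98. This library also had a peak at chr5:77310104-77310817 in the window. H3K4me3 replicate 2 and H3K27ac replicates 2 and 3 had peaks there, and H3K27me3 replicates 2 and 3 had none. The H3K27me3 region, chr5:77263788-77267289, had peaks in 3 of 3 libraries, and 48.3% of its 3.5 kb overlapped replicated H3K27ac. At Insm1 the 8 libraries were instead spread over both ends, with H3K27me3 replicate 1 at the higher-coordinate end and H3K27ac replicate 3 at the lower. The ISL1 densities of Insm1 and Rest were 6.79 and 0.827 regions per 100 kb.

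Genes that work with REST or are controlled by it were described from lists. Of 14 genes for partners of REST in its corepressor complexes, 14 had H3K27ac at the start in at least 2 libraries, 1 had H3K27me3, and 8 had a replicated ISL1 region in the window. The members with the most regions were Ehmt1, a histone methyltransferase (6), Phf21a (4), Rcor2 (4) and Rcor1 (3). Of 20 genes with a classical REST element, 14 had H3K27ac at the start, 13 had H3K27me3, 10 had both and 11 had a replicated ISL1 region; those with the most were Chga, Scn3a and Snap25, with 3 each, and Bdnf with 2. H3K27me3 at the start thus stood at 1 of 14 corepressor genes and 13 of 20 REST element genes, and the difference was not tested. It is not particular to these lists: H3K27me3 stood at 0 of 20 housekeeping starts and 9 of 12 neuron marker starts. H3K27ac stood at 19 and 10 of those starts. Of 14 proneural basic helix-loop-helix and early neuronal genes, 6 had H3K27ac at the start, 11 had H3K27me3, 5 had both and 9 had a replicated ISL1 region, led by Neurod1 (6), Neurod2 (4), Neurog1 (4) and Hes5 (3). The median density was 0.75 ISL1 regions per 100 kb for the corepressor list, 0.705 for the REST element list and 0.945 for the proneural list, compared with 0.809 for all genes. Over all genes, 48.4% had H3K27ac at the start, 19.8% had H3K27me3, 7.99% had both and 62.1% had a replicated ISL1 region, so that the ISL1 counts of the 3 lists (8 of 14, 11 of 20 and 9 of 14) lay close to the ordinary share.

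Across the 8 starts, H3K27ac was common, and H3K27me3 within 1 kb divided the genes. H3K27ac was at the start in at least 2 of 3 libraries at 7 of 8 genes, all except St18, compared with 48.4% of all genes. H3K27me3 was at the start in at least 2 of 3 libraries at 4 of 8 (Insm1, Insm2, Myt1l and Rest), compared with 19.8%. Each of those 4 also had H3K27ac, a combination present in 7.99% of all genes. Nhlh1, Nhlh2 and Myt1 had H3K27ac, with H3K27me3 in fewer than 2 libraries (40.4% of all genes). H3K27me3 alone was at 0 of 8 (11.8%), and St18 had neither at its annotated ends (39.8%). H3K4me3 replicate 2 had a start peak at 6 of 8 genes, all except Myt1l and St18, and in 40.5% of all genes. By library, H3K27ac was at the start of 6, 7 and 7 of the 8 genes in replicates 1 to 3 (24.6%, 54.3% and 55.2% of all genes), and H3K27me3 at 3, 5 and 4 (27.9%, 19% and 25.2%). The library labelled H3K4me3 replicate 1 had start peaks at 5 of 8 (20.4%). The counts of 7 and 4 ranged from 5 to 7 and from 3 to 6 under the alternatives tried. With 3 kb around the start, H3K27me3 was counted at 6 of 8, because Nhlh1 and Nhlh2 then changed sides. Their nearest replicated H3K27me3 regions lay 1.22 and 1.09 kb from the start, just outside 1 kb. Myt1 and Myt1l have several starts and Insm1, St18 and Rest were counted at either end, so these 5 had more bases in which a peak could fall.

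**Figure D5:**
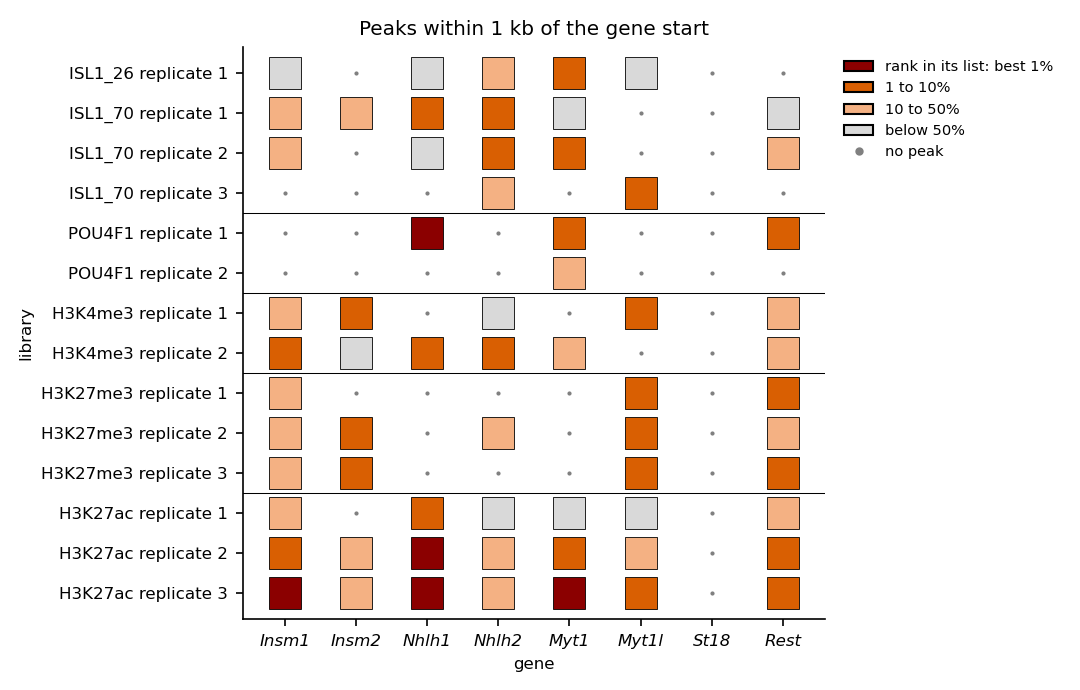
Libraries (rows) with a peak within 1 kb of the start of each gene (columns; either end for Insm1, St18 and Rest), coloured by the rank of the best such peak within its own list; small grey points mean no peak. Insm1 and Rest have peaks in all 8 histone libraries and St18 in none of the 14, and the Nhlh1 peak of POU4F1 replicate 1 is the only factor peak in the best 1% of its list.

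ISL1 was at the start in at least 2 of 4 libraries at 6 of 8 genes (Insm1, Nhlh1, Nhlh2, Myt1, Myt1l and Rest), compared with 20.8% of all genes. The same held for 10 of 20 housekeeping genes, 7 of 14 REST corepressor genes and 4 of 12 neuron markers. It held for 0 of 8 mesenchyme markers and 0 of 8 endothelium and blood markers. Rest was counted through its higher-coordinate end, because only ISL1_70 replicate 1 had a peak at the lower-coordinate end. ISL1_26 replicate 1 had start peaks at 5 of 8 (28.3% of all genes), and ISL1_70 replicates 1 to 3 at 6, 5 and 2 (29.9%, 9.24% and 11.8%). When the peaks also had to overlap, 4 were left (Insm1, Nhlh1, Nhlh2 and Myt1), compared with 14.7%. POU4F1 was at a start at 3 of 8 genes in replicate 1 (Nhlh1, Myt1 and Rest; 10.6% of all genes) and at 1 of 8 in replicate 2 (Myt1; 6.63%). Both POU4F1 libraries had peaks somewhere in 7 of the 8 windows (61.6% of all genes), but their peaks overlapped in 0 of 8 (3.97%). Any peak of all 4 ISL1 libraries, at any position, was found in 7 of 8 windows (61.6%), Rest being the exception.

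The 36 ISL1 regions were also compared with the marks that overlapped them. Of the 36, 24 had peaks in 2 libraries, 11 in 3 and 1 in 4, or 66.7%, 30.6% and 2.78%, compared with 74.7%, 17.7% and 7.58% of all 20413 replicated ISL1 regions. In position, 17 lay in their own gene, 6 in a neighbouring gene and 13 outside genes, and 5 were within 1 kb of a start, 14 within 10 kb and 24 within 50 kb. Replicated H3K27ac overlapped 19 (52.8%, 95% Wilson interval 37 to 68), compared with 47.5% of all. Replicated H3K27me3 overlapped 4 (11.1%, 4.41 to 25.3), compared with 6.94%. POU4F1 replicate 1 peaks overlapped 11 (30.6%, 18 to 46.9), compared with 14.4%, and POU4F1 replicate 2 peaks overlapped 2 (5.56%, 1.54 to 18.1), compared with 3.48%. Replicated POU4F1 overlapped 0 (Wilson 0 to 9.64), compared with 0.505%, H3K4me3 replicate 2 peaks 6 (16.7%, 7.87 to 31.9), compared with 12.5%, and peaks of the library labelled H3K4me3 replicate 1 overlapped 5 (13.9%, 6.08 to 28.7), compared with 7.38%. The intervals cover counting error only, and regions of a gene share its surroundings.

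The 11 regions with a POU4F1 replicate 1 peak were 4 at Nhlh1, 2 at Myt1, 2 at Myt1l and 1 each at Insm1, Nhlh2 and St18. Because the POU4F1 libraries seldom overlapped over the genome (0.868% of joined regions), this split describes replicate 1 only. All 11 overlapped replicated H3K27ac (100%, Wilson 74.1 to 100), whereas 8 of the 25 regions without such a peak did (32%, 17.2 to 51.6). Over the other ISL1 regions of the genome the same shares were 1987 of 2920 (68%) and 7698 of 17457 (44.1%). The intervals again cover counting error only and treat regions as independent, although 4 of the 11 share the Nhlh1 window. This split was not among the planned descriptions, and the difference was not tested. At Nhlh1 all 5 ISL1 regions overlapped replicated H3K27ac, at Nhlh2 5 of 8, at Insm1 4 of 7, at Myt1 2 of 3, at Myt1l 2 of 8, at St18 1 of 3, and at Insm2 and Rest 0 of 1. Replicated H3K27ac regions, 64 in the 8 windows, came mainly from replicates 2 and 3: without replicate 2, 13 were left, and without replicate 3, 12. All 8 genes had at least 1 (77.2% of all genes), and 5 of 8 had a region with peaks of both libraries labelled H3K4me3, replicate 1 with its peaks at Hox starts included (Insm1, Insm2, Nhlh1, Nhlh2 and Rest; 20.1%).

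Finally, the genes were compared by how much of the window was covered by peaks, as percentiles among all protein-coding genes in each of the 14 libraries. Of the pairs among the 8, Insm1 and Nhlh2 were most alike, with a mean absolute difference of 8.97 percentile points, followed by Nhlh1 and Nhlh2 (10.3) and Insm1 and Nhlh1 (14.1). Nhlh2 and St18 were least alike (50.6). Among the other genes, the nearest to Nhlh2 was Neurod1 (2.95), a basic helix-loop-helix factor of neuronal differentiation, followed by Ankrd33 (3.42). The nearest to Insm1 were Unc5b, a netrin receptor (5.73), and Pafah2 (5.89). Those nearest to Nhlh1 were Ip6k1 (7.23) and Acvr1b (7.37), to Myt1 Rfx7 (7.81) and Acvr1 (7.89), and to Myt1l Rbm20 (6.67) and Optn (7.05). Those nearest to Insm2 were Spa17 (7.73) and Popdc3 (8.5), to St18 Lrp1b (7.02) and Ptprt (7.19), and to Rest Slc26a8 (8.62) and Tm9sf4 (8.89). With 21887 genes to choose from, a near match in cover says nothing of function.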

How the data were processed

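Peak lists of 14 CUT&Tag libraries were used, 1 per library, without pooling. Per the file headers (the peak names), the authors called peaks with MACS2 against a control. Which control and which options were used is not given in the sources used here. The submitters' processing notes also name FastQC, Bowtie2, SEACR and mm10. The deposited columns hold a score, the fold enrichment (a ratio to the caller's background), and the −log10 p-value and −log10 q-value (1 or more) of each peak. Fold and rank by −log10 q describe peaks within a list only, since depth is unknown; a longer list gives more peaks and overlaps.

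Peaks of the autosomes (1 to 19) and the X and Y chromosomes were counted in a window or within 1 kb of a start by 1 bp of overlap (Python 3.11.15, pandas 2.3.3, scipy 1.17.1). Starts came from RefSeq promoters for 17492 of 21887 genes and otherwise from either annotated end. Replicated regions needed at least 2 libraries. No test was run. The code was tested on simulated data. All 8 genes are named, with the ISL1 region of each found in most libraries (ties by mean rank), regions with both POU4F1 libraries, up to 4 genes per list and the 2 nearest genes by window cover. The genes and 11 lists were chosen with earlier results of these data known. Alternatives changed the window, start distance, −log10 q, list length, overlap and libraries.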

Additional observations from a re-analysis of the deposited data

How the results depend on the processing

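Of 143 alternative values, 86 stayed within 1.5 times the reported count and 57 did not. With the 10000 best peaks of each list, the 36 replicated ISL1 regions became 7, the 8 genes that held them 3, the 64 replicated H3K27ac regions 17, and the 7 genes with peaks of both POU4F1 libraries 4. With a peak required in every library, 1 ISL1 region at 1 gene and 12 H3K27ac regions were left. H3K27ac regions numbered 39 with 10 kb on each side and 30 with 100 bp on each side of the summits. Leaving out a library gave 14 to 31 ISL1 regions at 4 to 8 genes, lowest without ISL1_26 replicate 1, and 12 to 62 H3K27ac regions, lowest without H3K27ac replicate 3. The cause was not tested. By construction, a stricter rule or a shorter list leaves fewer peaks to overlap. H3K27ac at the start (5 to 7 genes) and H3K27me3 at the start (3 to 6 genes) stayed within 1.5 times.

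No paired analysis was possible because the results come from peak lists without a test. Unknown depth limits every absence: a missing peak does not show that the protein or mark is absent, least of all in a short list such as the 8855 peaks of H3K27ac replicate 1. The 2 POU4F1 libraries shared 0 regions in the 8 windows, so statements on POU4F1 rest on single libraries.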
